A study of Mus musculus with 18 samples.

Results

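The Notch pathway genes examined were 10 in number: the receptors Notch1, Notch2, Notch3 and Notch4, the ligands Jag1, Jag2, Dll1 and Dll4, the DNA-binding factor Rbpj and the target gene Hes1. A differential m6A peak was counted for a gene when the authors' annotation named that gene at the peak, or when the peak was assigned to the gene and its centre lay inside it. By this rule 7 of the 10 genes held 10 differential peaks, of 28573 peaks placed in 11895 genes and of 40929 peaks in all. Notch1, Notch4 and Jag2 held none. The peaks came from m6A-seq, in which RNA fragments of about 100 nt are immunoprecipitated with an antibody to N6-methyladenosine (m6A) and sequenced beside the input RNA.

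Uteri were from ICR mice aged 8 weeks, an outbred stock, collected on day 5 of pregnancy (D5). The labels name no genotype beyond the stock. Veh mice received vehicle, and LPS mice received 0.5 mg/kg lipopolysaccharide on D3 and D4. Mel+LPS mice received the same LPS dose 30 min after 10 mg/kg melatonin. Melatonin or vehicle was given from D1 to D4, and the melatonin was dissolved in saline with ethanol. There were 3 input and 3 m6A libraries for each of the 3 treatments, 18 in all. The samples were whole uterus, so a peak cannot be given to one cell type, and fewer cells of a type and less RNA per cell cannot be told apart. The deposited tables list peaks higher or lower in LPS vs Veh and in Mel+LPS vs LPS, named LPS-up, LPS-down, Mel+LPS-up and Mel+LPS-down here. They give 1 score per peak and none per library, so no value below has a replicate error or a test and the read depth is unknown. The score is the log10 likelihood ratio for a difference between the treatments, positive in both directions. The LPS-down table was complete on chromosomes 1 to 9, where 5 of the genes lie (Notch1, Notch2, Jag1, Dll4 and Rbpj), and was used there only. Both comparisons use the LPS libraries, so their lists are not independent.

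Notch receptors and their Jagged and Delta-like ligands are membrane proteins of neighbouring cells. Ligand binding leads to cleavage of the receptor, and the freed intracellular domain joins RBPJ in the nucleus and turns on targets such as Hes1. In the uterus the pathway is known from endometrial stroma, decidua and blood vessels. m6A is an adenosine mark of mRNA that is placed mostly in the sequence DRACH, and is common near the stop codon and in long exons. In DRACH, D stands for any base but C, R for a purine and H for any base but G.

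The 2 sequences below show the Jag1 site listed in both comparisons and the Notch3 peak, whose score was among the highest of the member peaks. They are mRNA-strand sequences, 5′ to 3′, from GENCODE transcripts on GRCm38, and capitals mark DRACH.
Jag1, bases common to both peaks, chr2:137083146-137083317, minus strand: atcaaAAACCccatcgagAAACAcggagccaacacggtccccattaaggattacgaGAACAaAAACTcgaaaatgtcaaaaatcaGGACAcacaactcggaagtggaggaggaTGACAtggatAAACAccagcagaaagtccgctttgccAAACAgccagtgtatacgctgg
Notch3, chr17:32122386-32122618, minus strand: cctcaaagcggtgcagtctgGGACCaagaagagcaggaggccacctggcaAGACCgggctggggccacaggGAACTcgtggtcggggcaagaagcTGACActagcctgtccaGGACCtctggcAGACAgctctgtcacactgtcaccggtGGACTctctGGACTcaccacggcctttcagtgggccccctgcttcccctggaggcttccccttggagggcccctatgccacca
The 172 bases of Jag1 held 8 DRACH, and the 233 bases of Notch3 held 8.

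For the peaks on or beside untranslated regions (UTRs), 30 bases around the DRACH nearest the peak centre are shown, with that DRACH in capitals.
Dll1, within chr17:15367634-15367736, minus strand: tccttgaactagAAACAcaactgcctttat
Rbpj, within chr5:53653571-53653763, plus strand: gcagcaaaaagtTGACAgagaaaggcaagg
Hes1, within chr16:30065548-30065683, plus strand: caacacgacaccGGACAaaccaaagacggc

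**Figure D1:**
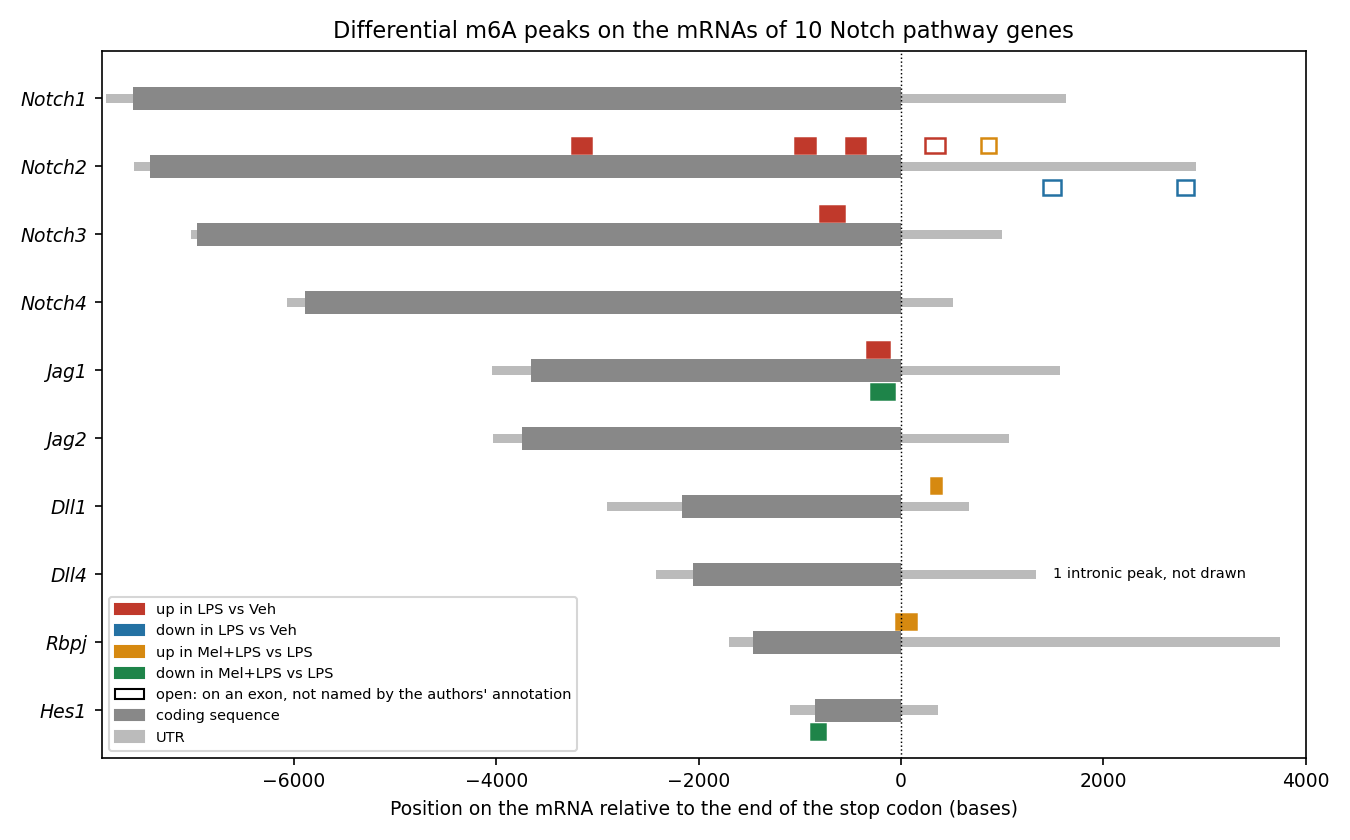
Differential m6A peaks on 1 mRNA of each of the 10 genes, drawn to scale in bases relative to the end of the stop codon. Up peaks are above and down peaks below each mRNA, filled boxes follow the rule, and open boxes are 4 peaks on the last exon of Notch2 that the authors assigned to Adam30. Jag1 was the only gene with overlapping peaks of different tables.

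Among the receptors, Notch2 and Notch3 held peaks higher in LPS than in Veh, and neither was listed under its own name as the assigned gene. Notch2 held 3 LPS-up peaks in coding sequence. The first (chr3:98135491-98135680) lay in exon 25 of 34 with a score of 1.61, the second (chr3:98146400-98146592) in exon 34 with a score of 1.56, and the third also in exon 34 with a score of 2.24. Each held 1 DRACH, or 5.2 to 5.3 per kb, where all 15390 peaks on exons had 24.8 per kb. This depended on the window: moved 100 bases toward the 5′ end, the Notch2 peaks held 6, 2 and 3 DRACH, or 31.6, 10.4 and 15.7 per kb, and all peaks 24.0 per kb. The exon 25 peak coded for residues 1391 to 1454, before the most hydrophobic stretch of 21 residues (1680 to 1700), taken as the transmembrane segment. The second peak coded for residues 2126 to 2190, after that stretch, and both exon 34 peaks were thus on the intracellular part of the receptor.

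The Notch3 peak (chr17:32122386-32122618) was in the last exon, at -682 bases relative to the end of the stop codon, and also coded for the intracellular part (residues 2053 to 2131, with the hydrophobic stretch at 1645 to 1665). Its score was 2.22, close to that of the highest Notch2 peak. It held 8 DRACH or 34.3 per kb, and 4 GGAC, and held 8 DRACH as well when moved 100 bases toward the 5′ end. It was assigned to Gm38585, whose start lay 9220 bases away.

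All 3 Notch2 peaks were assigned to the downstream gene Adam30, a metalloprotease gene, at -24954 to -13548 bases from its start. A further 4 peaks lay on the 3′UTR of Notch2, outside the rule because the 3′UTR class carries no gene name and Adam30 was assigned there too. One was LPS-up (chr3:98147685-98147878, score 1.44) and one Mel+LPS-up (chr3:98148238-98148379, score 1.40). The other 2 were LPS-down (chr3:98148848-98149028, score 1.88, and chr3:98150176-98150340, score 1.14). With them the last exon of Notch2 held LPS-up peaks up to 337 bases after the stop codon and LPS-down peaks 1494 and 2814 bases after it. None of the 7 Notch2 peaks overlapped another, the nearest of different tables being 359 bases apart. Notch1 and Notch4 had no peak in any table on the chromosomes used.

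Among the ligands, Jag1 was the one gene with a peak in both comparisons. Jag1, a Jagged ligand, held an LPS-up peak (chr2:137083146-137083358, score 1.97) and a Mel+LPS-down peak (chr2:137083095-137083317, score 1.62), both in exon 26 of 26. They shared 172 bases, which is 80.8% of the LPS-up peak and 77.1% of the Mel+LPS-down peak. The site was thus listed as higher in LPS than in Veh and lower in Mel+LPS than in LPS, with the LPS libraries in both. Other pathway genes, given below, also held such pairs. How often all genes hold one was not computed, so the pair cannot be called particular to Jag1. The 2 peak centres lay at -228 and -182 bases relative to the end of the stop codon, and the peaks coded for residues 1108 to 1179 and 1122 to 1196 of 1218, after the hydrophobic stretch at 1068 to 1088. They held 10 and 11 DRACH, 46.9 and 49.3 per kb, the highest densities among the member peaks.

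The Delta-like ligands were listed once each. Dll4, which is known for its part in vessel sprouting, held an LPS-up peak (chr2:119332862-119332982) in intron 9 of 10 with a score of 1.14, the lowest of the 10 peaks. Dll1 held a Mel+LPS-up peak (chr17:15367634-15367736) in the 3′UTR, 345 bases after the stop codon, with a score of 1.35 and 2 DRACH. For Dll1 the LPS-down table was not used, because chromosome 17 was not complete in it. Jag2 had no peak in the 3 tables used for it.

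In the nucleus, Rbpj and Hes1 were listed in Mel+LPS vs LPS only among the tables used, and in different directions. The Rbpj peak was Mel+LPS-up (chr5:53653571-53653763, score 1.41) and spanned the stop codon, with 50 coding bases, 143 bases of 3′UTR and 7 DRACH. The Hes1 peak was Mel+LPS-down (chr16:30065548-30065683, score 1.33). It was of the 5′UTR class in the authors' annotation and ran from 43 bases of 5′UTR into 93 coding bases of exon 1 and held 3 DRACH and 2 GGAC. Hes1, a transcriptional repressor, was the sole member with a peak at the start of its coding sequence. No difference between the comparisons was tested for either gene.

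By table, 4 of the 10 genes (Notch2, Notch3, Jag1 and Dll4) were LPS-up, against 20.1% of 21896 protein-coding genes. By the rule, none of the 5 genes on chromosomes 1 to 9 was LPS-down, where 22.0% of 11964 protein-coding genes were. This leaves out the 2 LPS-down peaks on the Notch2 3′UTR, which the authors assigned to Adam30. A Mel+LPS-up peak there is left out of the counts below for the same reason. In Mel+LPS vs LPS, 2 of the 10 (Dll1 and Rbpj) were up, against 25.6%, and 2 (Jag1 and Hes1) were down, against 15.3%. Among genes with a peak in any table, the shares were 46.7% for LPS-up, 48.0% for LPS-down, 55.6% for Mel+LPS-up and 37.6% for Mel+LPS-down, and 4 of 7, 0 of 4, 2 of 7 and 2 of 7 of the members with a peak in any table were listed. At least 1 table listed 7 of 10, against 42.3% of protein-coding genes. The mRNAs of the 10 genes had a median of 5526 bases, compared with 3353 for protein-coding genes with a peak and 2032 for those without, and the part of length in these counts was not tested.

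The scores of all 10 peaks were low for their tables. They ranged from 1.14 to 2.24, and each was below the median of peaks placed in genes in its table (2.76 for LPS-up, 2.18 for Mel+LPS-up and 3.09 for Mel+LPS-down). As percentiles among those peaks they lay between 2.0 (Dll4) and 41.7 (the third Notch2 peak). A score of at least 2 was reached by 2 of the 10, in Notch2 and Notch3, while 60.8% of all gene peaks reached it. A score of at least 3 was reached by 0 of 10, against 42.3% of all gene peaks.

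**Figure D2:**
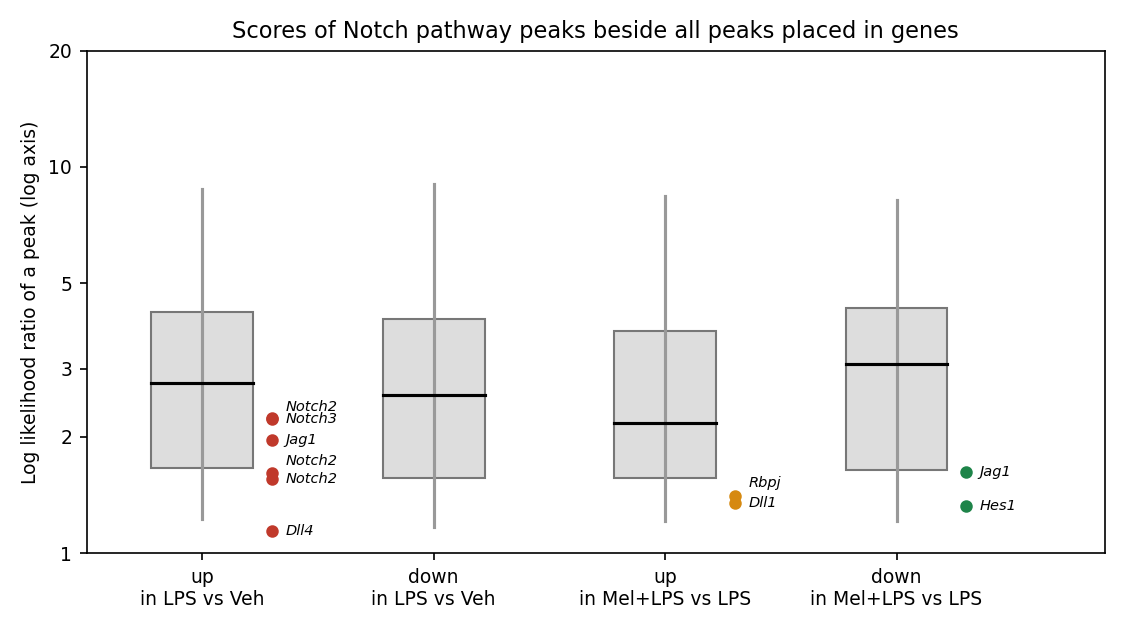
Scores (log10 likelihood ratio, log axis) of the 10 member peaks as points, by table, beside all peaks placed in genes. Boxes span the 25th to 75th percentiles with the median as a line, and whiskers the 5th to 95th; all 10 points, from 1.14 to 2.24, lie below the median of their table.

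On the mRNA, 9 of the 10 peaks were on exons and 1 was intronic. Of the 9, 7 had their centre in coding sequence and 2 in the 3′UTR, and 7 of 9 were in the last exon. Over all 15390 peaks on exons, 52.6% were coding, 45.3% 3′UTR and 67.3% in the last exon. These shares are not placed alike: the 15390 peaks were placed by exon alone, whereas the rule leaves out 3′UTR peaks assigned to another gene. Placed by exon, the members held 13 peaks, the added 4 all in the 3′UTR and last exon of Notch2. No excess of coding peaks can thus be read from the 7 of 9. All 9 held DRACH, as did 97.5% of all peaks on exons, so a match in a peak is not particular to these genes. They held 44 DRACH in 1675 bases, 26.3 per kb against 24.8 per kb. The 4-base motif GGAC, which is part of DRACH when a base other than G follows, was in 5 of 9 peaks, at 5.97 per kb against 5.51 per kb.

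Other genes of the pathway were read from a list of 59, ordered by role. Of these, 21 were LPS-up (35.6%), 9 of 33 on chromosomes 1 to 9 were LPS-down (27.3%), 20 were Mel+LPS-up (33.9%) and 12 were Mel+LPS-down (20.3%), beside the shares of protein-coding genes given above. At the cell surface, 0 of 4 other ligands and 2 of 5 glycosyltransferases, which modify the receptor, were listed in any table. Of protein-coding genes, 42.3% were. Pofut1, the O-fucosyltransferase, had 3 LPS-up peaks in its 3′UTR. The one of highest score (1.98) overlapped no Mel+LPS-down peak. One with 1.73 lay within a Mel+LPS-down peak with 1.71, and one with 1.71 overlapped a Mel+LPS-down peak with 1.10 by 14 bases only, 7.25% and 9.15% of the peaks. Of the proteases that cut the receptor, 5 of 10 were listed in any table, near the same 42.3%. Adam10, one of these proteases, held 1 intronic site that was LPS-up with a score of 6.19 and Mel+LPS-down with 6.29. Psen2, a subunit of γ-secretase, held 1 intronic site that was LPS-up with 3.78 and Mel+LPS-down with 3.85.

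**Figure D3:**
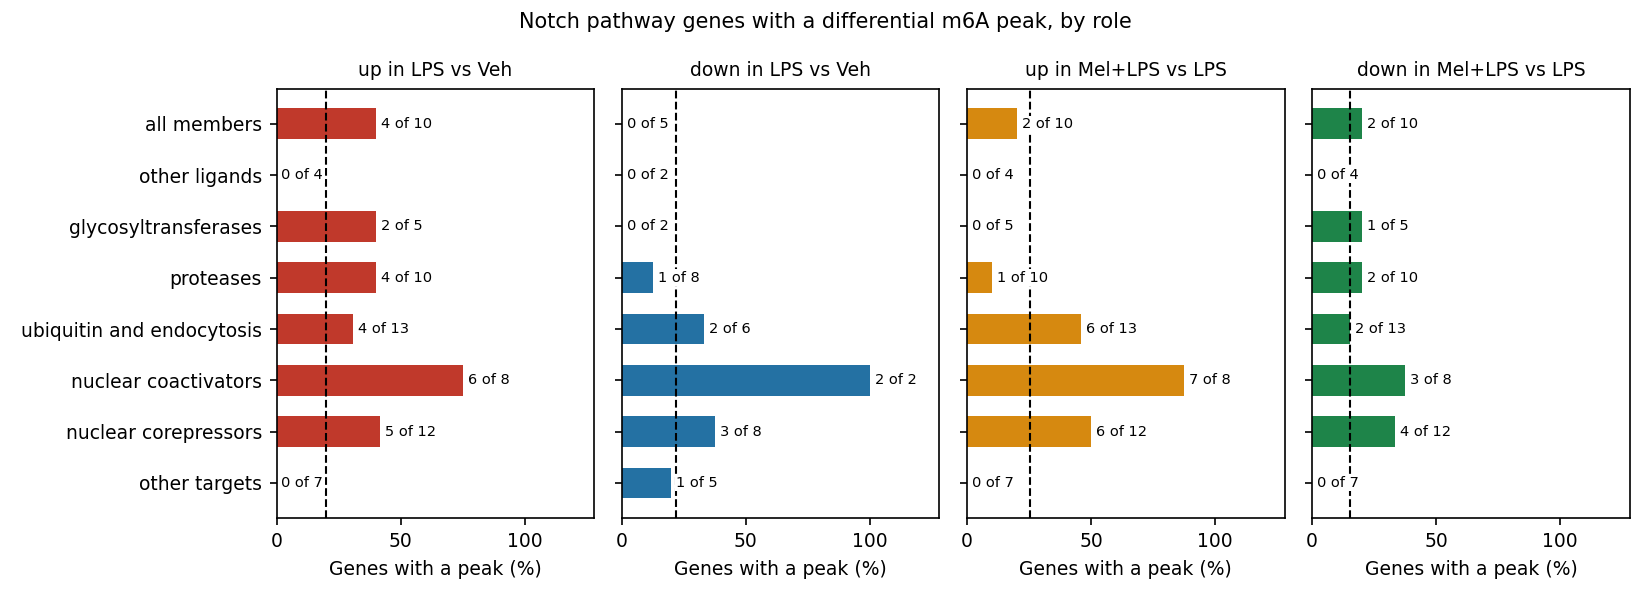
Share of the genes of each role list with a differential peak, in %, in each of the 4 tables, with counts beside the bars. Dashed lines are the share of protein-coding genes in that table (20.1, 22.0, 25.6 and 15.3%). The 8 nuclear coactivators have the longest bars in the LPS-up and Mel+LPS-up tables (6 and 7 of 8).

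Nuclear regulators had the largest shares among the lists of other pathway genes. All 8 coactivators were in at least 1 table, as were 8 of 12 corepressors, compared with 42.3% of protein-coding genes. Coactivator mRNAs had a median of 5966 bases, and the part of length was not tested. The Mastermind-like genes, whose proteins bind the Notch and RBPJ complex, ranged widely in score. Maml3 reached 13.0 in LPS-up, in an exon, and 8.48 in Mel+LPS-down, in an intron, but 1.72 in Mel+LPS-up. Maml2 reached 10.5 in LPS-down, in an intron, but 1.92 in Mel+LPS-up. Maml1 had scores of 1.24 in LPS-up and 1.72 in Mel+LPS-up, below the medians of gene peaks there. The acetyltransferase gene Ep300 reached 12.0 in Mel+LPS-up and 5.83 in Mel+LPS-down at other sites. Among the corepressors, L3mbtl3 reached 11.9 in LPS-up, and Tle3 reached 5.57 in LPS-down. In the ubiquitin and endocytosis group, in which 6 of 13 genes were listed, Itch reached 7.17 in LPS-down, in an intron. Neurl1b reached 9.98 in Mel+LPS-up. Numb had 5.42 in the same table, in an intron, a score it shared with intronic peaks of Crebbp, L3mbtl3 and Spen. Only 1 of 7 other target genes, Heyl, was listed.

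Sites of other pathway genes that were listed in both comparisons are given side by side. L3mbtl3 held 3 LPS-up sites (scores 4.53, 11.9 and 4.69, the last in an intron) that were Mel+LPS-down with 2.34, 2.43 and 4.77. Crebbp, an acetyltransferase gene, was LPS-up with 1.44 and Mel+LPS-down with 2.503. Dtx4, a Deltex ubiquitin ligase gene, was LPS-up with 1.46 and Mel+LPS-down with 1.44. Fbxw7, Cir1 and Spen were lower in LPS and higher in Mel+LPS at a site. The scores were 2.41 and 4.64 for Fbxw7, a ubiquitin ligase subunit gene, and 1.68 and 2.34 for Cir1. The Fbxw7 site was of the promoter class in the authors' annotation, not of an exon class. Spen had 3 such sites (2.73, 3.23 and 1.34, then 4.31, 4.78 and 2.85), the middle one in an intron. Spen also had 2 peaks listed as up in both that overlapped by 26 bases, with 1.31 and 2.20. Cir1 and Spen are corepressor genes. The LPS libraries are in each pair. How often peaks of all genes overlap in opposite directions was not computed, so these pairs cannot be called particular to the pathway.

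**Figure D4:**
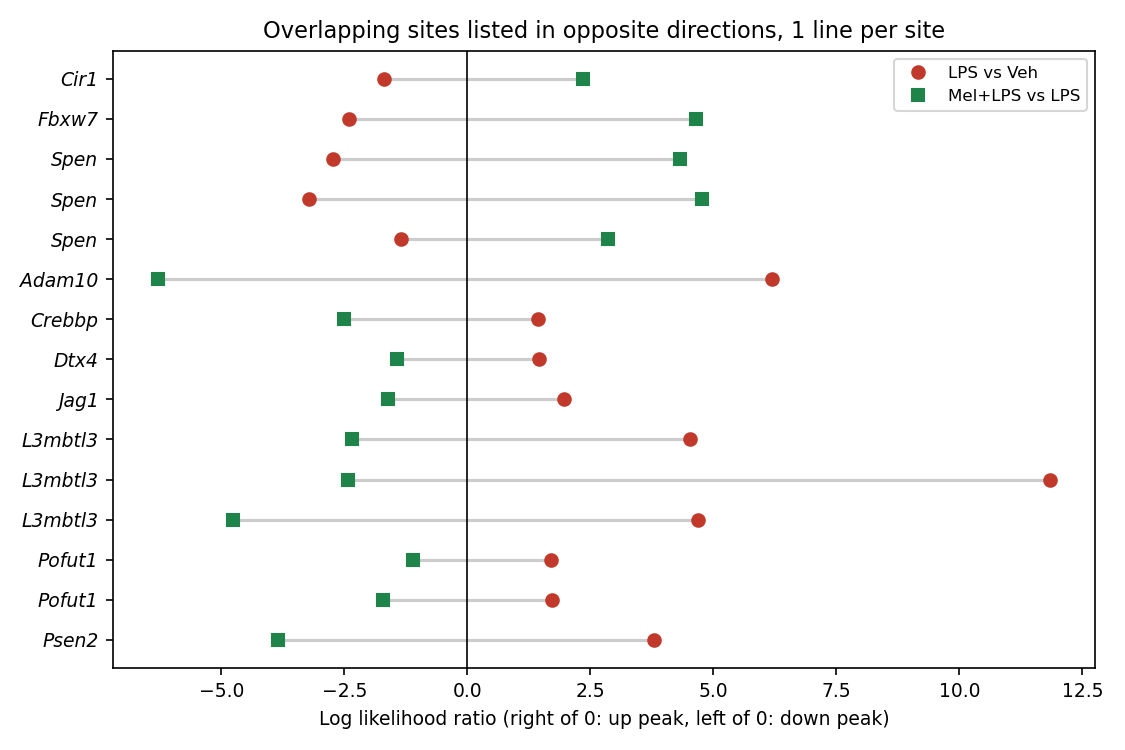
Overlapping sites of Notch pathway genes that are listed in opposite directions in the 2 comparisons, 1 line per site, with the score (log10 likelihood ratio) drawn to the right for up and to the left for down. Circles are LPS vs Veh and squares Mel+LPS vs LPS; Jag1 is at 1.97 and, for the down peak, 1.62.

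Genes that mark the cells of the uterus were also listed, in these tables of peaks and not of RNA levels: 6 of 9 stromal and epithelial markers, 5 of 5 smooth muscle markers, 5 of 6 endothelial markers and 3 of 8 leukocyte markers were in at least 1 table. The share of protein-coding genes was 42.3%. In LPS-up (20.1% of protein-coding genes) were 3 of 9 stromal and epithelial, 1 of 5 smooth muscle, 3 of 6 endothelial and 3 of 8 leukocyte markers. In LPS-down (22.0%, chromosomes 1 to 9) were 1 of 5, 3 of 3, 2 of 5 and 0 of 5 of them, in the same order. In Mel+LPS-up (25.6%) were 3 of 9, 4 of 5, 3 of 6 and 2 of 8, and in Mel+LPS-down (15.3%) 5 of 9, 1 of 5, 1 of 6 and 2 of 8. Their part in the results for the Notch genes was not tested.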

How the data were processed

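Inputs and m6A immunoprecipitates of mouse uterus were analysed as differential peaks. Fastp (read trimming), STAR 2.5.2a (alignment), exomePeak2 (peak calling), MACS2 (differences between treatments) and ChIPseeker 1.22.1 (annotation) were run by the authors on GRCm38. The deposited score of a peak is the log10 likelihood ratio from MACS2. How replicates were pooled is not given in the sources used here. The members, the pathway and marker lists and the rule were chosen with earlier results of these data known.

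Peaks were placed in genes by the rule in the text, whatever the score. Member sites were shared at an overlap of at least 1 base. For each of 21877 protein-coding genes, 1 GENCODE transcript (release 21) gave positions, DRACH counts on the mRNA strand and the most hydrophobic window of 21 residues. All 10 members and the pathway genes are named by role, with values for the 3 genes of highest score in each table and for sites listed in both comparisons. Not every gene under this rule and not every peak sequence is reported here. Alternatives were a score of at least 2 or 3, the assigned gene alone, exon placement (chosen after seeing the data for counts per table), merging within 100 bases, other overlap rules, a shift of 100 bases and the motif GGAC. Placement and motif steps were tested on simulated data. Python 3.11.15, pandas 2.3.3, numpy 2.4.6 and matplotlib 3.10.9 were used.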

Additional observations from a re-analysis of the deposited data

How the results depend on the processing

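No paired analysis was possible because the tables hold no value per replicate, and leaving out replicates could not be run for the same reason. The count of 10 member peaks was 6 with the assigned gene alone, 2 at a score of at least 2 and 0 at a score of at least 3. The 4 LPS-up genes became 2 with the assigned gene alone, 2 at a score of at least 2 and 0 at a score of at least 3. The 2 Mel+LPS-up and the 2 Mel+LPS-down genes became 0 at either score. With peaks placed by exon, a rule chosen after seeing the data, LPS-down rose from 0 genes to 1, Notch2. LPS-up then fell from 4 genes to 3, without the intronic Dll4 peak. Mel+LPS-up rose from 2 to 3 with Notch2, and Mel+LPS-down stayed at 2. Background shares by exon are not given here. The background shares of 46.7, 48.0, 55.6 and 37.6% became 20.1, 22.0, 25.6 and 15.3% over all protein-coding genes. At a score of at least 3 the other pathway genes fell from 21 to 8 (LPS-up), from 9 to 5 (LPS-down), from 20 to 9 (Mel+LPS-up) and from 12 to 8 (Mel+LPS-down). The share of all genes in each table at that score was not computed. The motif density of 26.3 per kb became 5.97 for GGAC alone, a shorter motif. The Jag1 site stayed the 1 site shared between tables under each overlap rule tried. The depth behind the scores is unknown.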

Other observations

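Some pathway genes other than the 10 were listed in opposite directions within 1 comparison, at different sites. For LPS vs Veh these were 7 genes (Aph1c, Cir1, Fbxw7, Itch, Maml2, Maml3 and Spen), and for Mel+LPS vs LPS they were 8 (Cir1, Crebbp, Dtx4, Ep300, L3mbtl3, Maml3, Neurl1b and Tle1). The share of all genes listed in both directions was not computed, so these counts cannot be called high or low for the pathway.

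Some scores recurred. The most common score of the LPS-up table, 3.78, was shared by 1450 peaks (12.1%), among them the Psen2 site, and that of the Mel+LPS-down table, 3.85, by 1370 peaks (14.9%), again with the Psen2 site. The Adam10 site had a score held by 242 peaks in LPS-up and by 194 in Mel+LPS-down, and the Numb peak had the most common score of the Mel+LPS-up table, 5.42 (479 peaks). No peak of the 10 genes had a score held by another peak of its table. What the recurring values stand for was not tested.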
